A study of Mus musculus with 12 samples.

Results

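Genomic imprinting marks a gene by the parent it came from, so that cells read mainly the maternal or mainly the paternal copy. Imprinted genes lie in domains, where a differentially methylated control region sets the expression of neighbours from opposite parental copies, and many of them act on fetal growth. They include the growth factor gene Igf2, the IGF2 clearance receptor gene Igf2r and the cell cycle inhibitor gene Cdkn1c. In germ cells imprints are erased and reset, whereas gonadal somatic cells keep them. Here 36 imprinted genes, 18 known for maternal and 18 for paternal expression, were followed in NR5A1(+) cells of fetal mouse gonads. They were chosen by symbol, and all 36 are among the 24411 symbols of the tables. Parental origin is textbook knowledge of these genes: the tables hold 1 value per gene and no allele. Of the maternally expressed genes 8 are imprinted only in some tissues or transcripts (Grb10, Blcap, Ube3a, Commd1, Gnas, Ppp1r9a, Dcn and Gatm), and the Gnas value sums transcripts of different parental origin.

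The study measured 12 RNA-seq libraries. All cells carried the genotype Nr5a1-hCD271, in which the Nr5a1 gene drives the human surface protein CD271. NR5A1 is the transcription factor SF-1, which marks gonadal and adrenal somatic precursors. Gonads of E10.8 embryos, kept together with aorta, mesonephros and mesenchyme, were cultured for 19.2 h in DMEM with 10% horse serum. The cultured groups were control XY (n = 3), XY with 150 µM of the iron chelator deferoxamine (Dfo, n = 3) and control XX (n = 2), and no XX culture with Dfo was analysed. At E11.5 there were 2 groups, titled WT, of XY cells (n = 2) and of XX cells (n = 2). The labels put the same culture text on the E11.5 libraries and do not say that replicates came from separate embryos, so the spread that p-values rest on may be technical.

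Values are TPM, each gene's share of a library's transcripts after scaling by length, which keeps no depth, so the depth of the libraries is unknown. Nr5a1 was read in every library (78.9 to 239 TPM), and Sry was listed at 0 in all 4 XX libraries. Xist, the RNA of the inactive X chromosome, reached 13.6 and 24.6 TPM in Dfo XY replicates 1 and 2, against at most 0.90 TPM in the other XY libraries. Sry, the testis-determining gene, stood at 2.40 to 4.23 TPM in Dfo XY and at 16.4 to 45.6 TPM in control XY. Replicates 1 and 2 of each cultured XY group lay closer to each other (median difference 0.08 for control and 0.09 for Dfo on the log2 scale) than either lay to replicate 3 (0.19 to 0.20). A single RNA, the RNase P RNA Rpph1, took 15.3% to 20.3% of all TPM in control XY, 19.5% to 23.6% in Dfo XY, 6.96% to 7.20% in control XX, 12.02% to 12.18% in E11.5 XY and 8.57% to 11.47% in E11.5 XX. The 36 genes together took 1.03% to 1.09% of TPM in control XY, 0.898% to 0.940% in Dfo XY, 1.55% to 1.56% in control XX, 1.15% to 1.18% in E11.5 XY and 1.27% to 1.47% in E11.5 XX. Because TPM is a share, a larger part taken by Rpph1 leaves less for other genes, and many counts under other scalings are given below. In these sorted bulk samples, fewer cells of a type and less RNA per cell cannot be told apart.

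In GENCODE M21 (mouse GRCm38, which is mm10) the 36 genes lie in 17 imprinted domains on 8 chromosomes. In the Peg3 domain, on which several comparisons turn, the maternally expressed Zim1 (chr7:6671269-6696450, minus strand), a zinc finger gene, lies 7442 bp from the end of the paternally expressed zinc finger gene Peg3 (chr7:6703892-6730431, minus strand). The paternally expressed protease gene Usp29 (chr7:6730578-6967219, plus strand) starts 147 bp from the Peg3 start. Nnat (chr2:157560078-157562522, plus strand), which encodes the membrane proteolipid neuronatin, lies inside the gene of Blcap (chr2:157556362-157571274, minus strand). The 250 bases before the start site of Peg3, Zim1, Nnat and Igf2r are shown because the first 3 genes are among those with the smallest adjusted p below and Igf2r gives a CpG-rich contrast. They come from RefSeq (GRCm38.p6) and are written 5′ to 3′ on the strand of the gene, with CG dinucleotides, the sites of DNA methylation, in capitals.
Peg3, chr7:6730420-6730669, minus strand: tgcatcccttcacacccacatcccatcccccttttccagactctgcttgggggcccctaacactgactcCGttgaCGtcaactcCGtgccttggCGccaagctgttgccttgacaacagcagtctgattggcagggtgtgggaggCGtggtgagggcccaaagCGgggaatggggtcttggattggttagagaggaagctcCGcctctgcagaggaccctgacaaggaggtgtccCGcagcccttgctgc
Zim1, chr7:6696433-6696682, minus strand: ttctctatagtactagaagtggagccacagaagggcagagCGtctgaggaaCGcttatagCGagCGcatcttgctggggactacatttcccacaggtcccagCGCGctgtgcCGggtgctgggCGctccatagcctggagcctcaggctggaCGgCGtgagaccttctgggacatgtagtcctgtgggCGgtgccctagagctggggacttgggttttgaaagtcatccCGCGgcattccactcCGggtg
Nnat, chr2:157559828-157560077, plus strand: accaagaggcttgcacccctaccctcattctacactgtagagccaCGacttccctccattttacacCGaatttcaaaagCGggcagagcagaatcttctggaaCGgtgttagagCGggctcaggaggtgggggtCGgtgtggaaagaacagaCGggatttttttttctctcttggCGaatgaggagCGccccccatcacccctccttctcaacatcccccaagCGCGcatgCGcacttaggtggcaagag
Igf2r, chr17:12769707-12769956, minus strand: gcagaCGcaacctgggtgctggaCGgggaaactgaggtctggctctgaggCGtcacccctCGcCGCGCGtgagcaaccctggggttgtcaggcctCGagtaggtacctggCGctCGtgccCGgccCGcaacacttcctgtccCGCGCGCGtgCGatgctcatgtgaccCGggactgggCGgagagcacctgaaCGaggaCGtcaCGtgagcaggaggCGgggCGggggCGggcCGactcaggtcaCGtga
The Igf2r start in RefSeq lies upstream of that in GENCODE M21, so the orientation of this window could not be checked against a transcript, as it was for the other 3. The Peg3 window holds 8 CG dinucleotides, that of Zim1 14, that of Nnat 12 and that of Igf2r 27. RefSeq windows were found for 29 of the 36 genes (45 windows, several for genes with more than 1 start), with a median of 10 CG, against 6 over all 32851 mouse promoter windows of the same length. The windows of Peg3 and Usp29 share 163 bases. The letters ACGTG or GCGTG, the core read by hypoxia-inducible factors, whose degradation needs iron-dependent enzymes, were searched on both strands. They stand in 51.1% of the members' windows and in 38.6% of all windows. Both sets of letters contain CG, of which the members' windows hold more, and some windows overlap, so these shares are not like for like. Peg3 and Zim1 each hold 1 GCGTG, Nnat holds neither, and Igf2r holds 4 ACGTG, where the palindrome CACGTG counts on each strand, and 2 GCGTG. A match is a description of the letters only.

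H19, a maternally expressed long non-coding RNA, had the highest level of the 36, with a mean of 4329 TPM over the 12 libraries, which is rank 9 of the 24411 symbols. Peg3 followed at 1361 TPM (rank 75), then Gnas, the stimulatory G protein alpha subunit, at 1221 TPM, Igf2 at 939 TPM and Cdkn1c, which encodes p57, at 768 TPM. Mest, a hydrolase-fold protein of mesoderm, had 673 TPM, the signalling adaptor Grb10 464 TPM, the retrotransposon-derived Peg10 391 TPM and Nnat 243 TPM. H19 alone made up 33.4% to 41.6% of the TPM of the 36 genes. At the low end stood Nap1l5 (3.29 TPM), Phlda2 (2.91 TPM), which restrains placental growth, Rtl1 (2.23 TPM) and Slc22a18 (0.32 TPM). Slc22a18 was listed at 0 in 8 of 12 libraries. It was the only gene of the 36 that missed the filter of 1 TPM in at least 2 libraries, so 35 genes, 17 maternally and 18 paternally expressed, were tested among 16133. Within groups, the 35 genes spread by a median SD of 0.15 on the log2 scale, against 0.25 for all genes tested, which weigh toward lower levels. The plot of levels shows these ranks and the spread of the libraries.

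**Figure D1:**
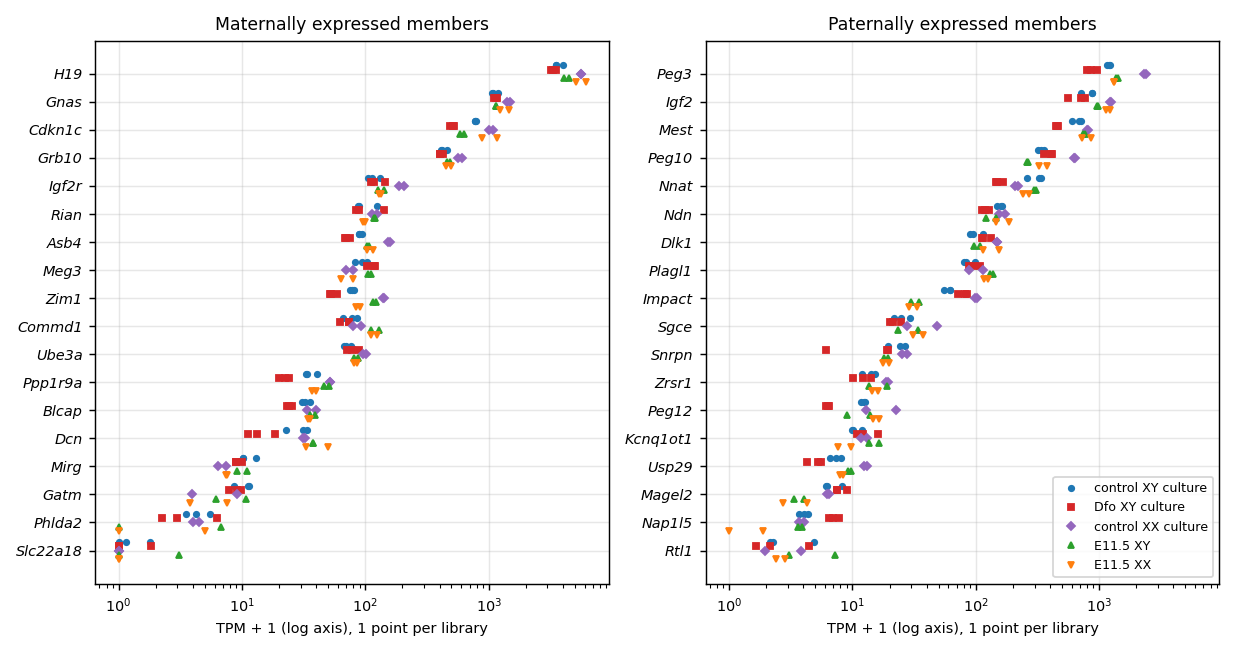
Level of each of the 36 genes in each library as TPM + 1 on a log axis, 1 point per library, coloured by group, with maternally expressed genes on the left and paternally expressed genes on the right in order of mean level. H19 lies at the top left with 3201 to 6102 TPM, and Slc22a18 at the bottom with most points at 0 TPM.

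The first comparison asks how Dfo changed XY cells in culture. Of the 35 genes tested, 1 rose and 11 fell with Dfo at an adjusted p below 0.05 (limma, Benjamini-Hochberg over all 16133 genes). Over all genes tested 15.5% were called, 4.98% higher and 10.5% lower. Among maternally expressed genes 0 rose and 6 of 17 fell, and among paternally expressed genes 1 rose and 5 of 18 fell. The median change was -0.22 for the maternally and -0.19 for the paternally expressed genes on the log2 scale, beside -0.17 for all genes tested. Under median-of-ratios scaling, which moves the median of all genes to -0.05, 6 of the 35 were higher and 8 lower, and over all genes 1520 were higher and 1024 lower in place of 803 and 1695. With quantile normalization 3 were higher and 11 lower, and over all genes 1291 were higher and 1193 lower. With Rpph1 left out of the total 2 were higher and 10 lower, and over all genes 1084 were higher and 1382 lower.

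Nnat stood at 339, 326 and 259 TPM in control XY replicates 1 to 3 and at 165, 144 and 148 TPM in Dfo XY. Every Dfo library lay below every control library. Markers of neural crest and neurons, which also express Nnat, summed to 72.1 to 161 TPM in control XY and 52.6 to 82.9 TPM in Dfo XY, with 0 at 0 TPM. Of 7 tested, Tubb3 (-1.79) and Stmn2 (-1.41), both genes of neurons, fell and Th (1.63), the tyrosine hydroxylase of catecholamine cells, rose, and their part in the result was not tested. The fold on log2(TPM + 1) was 2.01 lower (log2 change -1.01 ± 0.11 SE, limma adjusted p = 5.95e-05). Peg12, a paternally expressed FRAT family gene whose product binds GSK3, stood at 11.6, 11.3 and 10.75 TPM in control XY and at 5.50, 5.34 and 5.10 TPM in Dfo XY, a log2 change of -0.95 ± 0.22 (limma adjusted p = 0.0130). Its level is low, and the groups did not overlap. Mest fell from 687, 712 and 602 TPM to 446, 464 and 458 TPM (-0.54 ± 0.09, limma adjusted p = 0.00172), again with no overlap. Peg3 fell from 1226, 1165 and 1205 TPM to 791, 854 and 966 TPM (-0.47 ± 0.09, limma adjusted p = 0.00409), with Dfo XY replicate 3 nearest the controls.

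Of the maternally expressed genes, Cdkn1c, whose product p57 stops cells in G1, fell from 796, 771 and 769 TPM to 484, 527 and 517 TPM. The log2 change was -0.61 ± 0.10 (limma adjusted p = 0.00149), and the groups were far apart relative to their spread. Zim1 fell from 80.3, 76.95 and 74.1 TPM to 51.4, 50.8 and 57.5 TPM (-0.53 ± 0.09, limma adjusted p = 0.00146). Its neighbour Usp29 had 6.42, 5.52 and 7.06 TPM in control XY and 3.26, 4.22 and 4.58 TPM in Dfo XY, with no overlap, and did not pass the test (-0.55 ± 0.19, limma adjusted p = 0.0666). Of the 3 genes followed in the Peg3 domain, Peg3 and Zim1 were thus called lower and Usp29 was not. How many of all genes separate without overlap was not counted.

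Ppp1r9a, which encodes neurabin, a regulator of protein phosphatase 1, fell from 32.4, 32.8 and 39.5 TPM to 21.3, 18.9 and 23.1 TPM (-0.70 ± 0.12, limma adjusted p = 0.00190). Asb4, a SOCS box gene of the same domain as Ppp1r9a, fell from 93.8, 87.9 and 87.3 TPM to 73.7, 67.3 and 68.3 TPM (-0.36 ± 0.08, limma adjusted p = 0.0133). The paternally expressed Peg10 of this domain lay at 339, 319 and 358 TPM in control XY and at 409.9, 417 and 358 TPM in Dfo XY, a change of 0.22 ± 0.09 that was not called (limma adjusted p = 0.118). Peg10 was called higher under median-of-ratios scaling, with quantile normalization, with Rpph1 left out of the total and without Dfo XY replicate 3. Asb4 lost its call under median-of-ratios scaling and without control XY replicate 1 or Dfo XY replicate 2.

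Blcap, which overlaps Nnat on the opposite strand, fell from 31.7, 29.9 and 34.6 TPM to 23.0, 22.1 and 24.4 TPM (-0.45 ± 0.11, limma adjusted p = 0.0186). Its call ended in 7 of 22 alternatives, among them median-of-ratios scaling (adjusted p = 0.262) and leaving out control XY replicate 1 or 3 or Dfo XY replicate 1 or 2. The libraries came from a stranded kit, but the strand setting of the counting is not given, so reads of Nnat and Blcap may not be fully separated. Dcn, which encodes the matrix proteoglycan decorin, fell from 30.2, 32.5 and 21.7 TPM to 17.4, 12.2 and 10.2 TPM, a fold of 2.06 (-1.04 ± 0.21, limma adjusted p = 0.00553). Decorin is a product of mesenchyme: of 8 mesenchyme markers 0 rose and 4 fell with Dfo (Col1a1, a collagen chain, by 0.94, Col1a2, another, by 0.93 and Postn, a matrix protein, by 0.67 on the log2 scale), and their summed level was 945 to 1062 TPM in control XY and 686 to 827 TPM in Dfo XY, with 0 markers at 0. Markers of gonadal somatic cells moved too: 0 of 8 rose and 4 fell (Wt1 by 0.38, Emx2 by 0.71 and Cbx2 by 0.47), with a summed level of 681 to 829 TPM in control XY and 511 to 584 TPM in Dfo XY. Of the coelomic epithelium markers 4 of 7 fell (Aldh1a2 by 1.14, Upk3b by 1.21 and Lrrn4 by 0.94 first), from a sum of 449 to 557 TPM to 254 to 339 TPM without overlap and with at most 1 at 0 TPM. Of 8 mesonephric markers Pax2 (-0.92) and Epcam (-0.64) fell, with sums of 123 to 131 TPM and 60.7 to 107 TPM. The part of these cells in the changes of the imprinted genes was not tested.

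The last 2 called genes fall outside the 10 with the smallest adjusted p and are named after their values were seen. Impact, which inhibits the amino acid sensor kinase GCN2, was the 1 gene that rose, from 61.0, 60.6 and 54.1 TPM to 71.0, 84.0 and 80.1 TPM (0.41 ± 0.11, limma adjusted p = 0.0220). Ndn, the MAGE family gene of necdin, fell from 162, 147 and 159 TPM to 119, 127 and 112 TPM (-0.39 ± 0.11, limma adjusted p = 0.0314). Like Blcap, both lost their call in several alternatives: leaving out 1 cultured XY library ended the call of Ndn for each of the 6 libraries (adjusted p up to 0.104) and that of Impact for control XY replicate 1, 2 or 3 and Dfo XY replicate 2 or 3 (adjusted p up to 0.0977).

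The best known growth genes were not called. H19 had 3501, 3485 and 4005 TPM in control XY and 3316, 3201 and 3506 TPM in Dfo XY, which overlap (-0.13 ± 0.11, limma adjusted p = 0.477, and 0.021 under median-of-ratios scaling). Igf2 had 876, 869.7 and 708 TPM and then 769, 716 and 554 TPM (-0.27 ± 0.12, limma adjusted p = 0.159). Each Dfo library was lower than the control of the same replicate number, and with the replicate number as a block Igf2 was called (limma adjusted p = 0.0153). Igf2r, with 105, 113 and 131 TPM and then 117, 111 and 144 TPM, gave 0.09 ± 0.11 (limma adjusted p = 0.648). These 3 genes kept overlapping ranges in the 2 groups.

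In the Dlk1 domain, the long non-coding RNA Meg3 had 103, 93.5 and 82.1 TPM in control XY and 117, 102 and 119 TPM in Dfo XY (0.28 ± 0.12, limma adjusted p = 0.140). Dlk1, a transmembrane protein of the Notch ligand family, had 93.9, 88.5 and 114 TPM and then 114, 111 and 133 TPM (0.27 ± 0.13, limma adjusted p = 0.188). Plagl1, the zinc finger factor ZAC1, had 79.97, 82.1 and 97.4 TPM and then 93.6, 87.2 and 108 TPM (0.15 ± 0.12, limma adjusted p = 0.435). Under median-of-ratios scaling Dlk1 (0.42, limma adjusted p = 0.0148) and Plagl1 (0.30, limma adjusted p = 0.0483) were called higher. Nap1l5, of the nucleosome assembly protein family, had 3.06, 2.68 and 3.38 TPM and then 6.78, 6.0 and 5.40 TPM with no overlap, but was not called (0.80 ± 0.27, limma adjusted p = 0.0603). It was called higher under median-of-ratios scaling, with quantile normalization, in the fit on the groups compared only and without either E11.5 XX library. The other genes not called ranged from -0.82 (Snrpn, where Dfo XY replicate 2 stood alone at 5.13 TPM) to 0.27 (Kcnq1ot1).

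**Figure D2:**
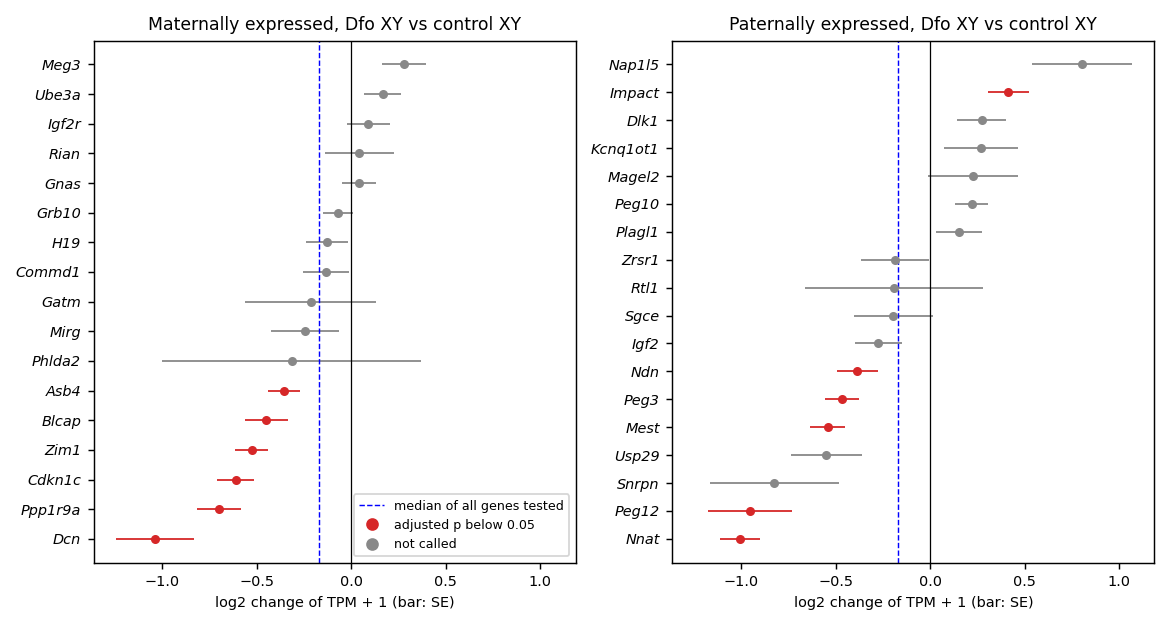
Log2 change of TPM + 1 from control XY (n = 3) to Dfo XY (n = 3) for the 17 maternally and 18 paternally expressed genes tested, with the standard error as bars. Red points passed an adjusted p below 0.05, grey points did not, and the dashed line at -0.17 is the median of all genes tested. Dcn (-1.04) and Nnat (-1.01) lie farthest to the left, and Impact (0.41) is the red point to the right of 0.

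Nnat and Dcn stayed called in all 22 alternatives. With replicates 1 and 2 of each cultured XY group averaged as 1 sample, 6 genes were called, all lower and all among the 12. Over all genes 834 were then called, in place of 2498. When Dfo XY replicates 1 and 2, the libraries with Xist, were left out, 2 genes were called, Nnat and Dcn, and the 1 Dfo library that stayed was assumed to vary like the other groups.

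The second comparison asks how XY and XX cells differed after culture without Dfo. Of the 35 genes, 2 were higher and 15 lower in control XY than in control XX, where 25.2% of all genes were called, 2.97% higher and 22.2% lower. Among maternally expressed genes 1 was higher and 9 of 17 lower, and among paternally expressed genes 1 was higher and 6 of 18 lower. Median changes were -0.38 and -0.37 beside -0.22 for all genes tested. The scaling weighs more here. Rpph1 took 15.3% to 20.3% of TPM in control XY and 6.96% to 7.20% in control XX, and its part in this was not tested. Under median-of-ratios scaling, with a median of 0.07 over all genes, 3 of the 35 were higher and 5 lower (over all genes 529 higher and 499 lower, in place of 479 and 3585). With quantile normalization or with Rpph1 left out of the total, 3 were higher and 8 lower. Over all genes 291 were then higher and 323 lower with quantile normalization, and 534 higher and 1513 lower without Rpph1. Peg3, Peg10, Zim1 and Asb4 stayed lower in all 21 alternatives.

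Peg3 showed the smallest adjusted p. It had 1226, 1165 and 1205 TPM in control XY and 2394 and 2292 TPM in control XX, a fold of 1.95 (log2 difference -0.97 ± 0.10, limma adjusted p = 0.000287). Zim1 moved with it, from 80.3, 76.95 and 74.1 TPM in XY to 141 and 139 TPM in XX (-0.85 ± 0.10, limma adjusted p = 0.000387). Usp29, at 6.42, 5.52 and 7.06 TPM against 11.4 and 12.2 TPM, was called as well (-0.81 ± 0.21, limma adjusted p = 0.0151). All 3 genes of the Peg3 domain were thus lower in cultured XY than in cultured XX. The call of Usp29 ended under all 3 other scalings.

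Peg10 had 339, 319 and 358 TPM in control XY and 629 and 635 TPM in control XX (-0.90 ± 0.10, limma adjusted p = 0.000336). Asb4 of the same domain had 93.8, 87.9 and 87.3 TPM against 152 and 159 TPM (-0.79 ± 0.09, limma adjusted p = 0.000468). Neither gene's groups came near each other. Impact had 61.0, 60.6 and 54.1 TPM against 102 and 97.5 TPM (-0.76 ± 0.12, limma adjusted p = 0.00171), and was not called under median-of-ratios scaling or quantile normalization (adjusted p up to 0.135).

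In the IGF system, Igf2r had 105, 113 and 131 TPM in XY and 186 and 205 TPM in XX (-0.75 ± 0.13, limma adjusted p = 0.00231). H19 had 3501, 3485 and 4005 TPM against 5630.3 and 5564 TPM (-0.61 ± 0.12, limma adjusted p = 0.00474). Igf2 had 876, 869.7 and 708 TPM against 1224 and 1246 TPM (-0.60 ± 0.14, limma adjusted p = 0.00854). Growth factor, clearance receptor and H19 RNA were all lower in XY. Grb10, which restrains insulin and IGF receptor signalling, had 417, 413 and 459.6 TPM against 564 and 604 TPM (-0.44 ± 0.09, limma adjusted p = 0.00460). The ubiquitin ligase gene Ube3a had 68.4, 66.4 and 75.0 TPM against 95.7 and 99.9 TPM (-0.48 ± 0.11, limma adjusted p = 0.00869). H19, Igf2, Grb10 and Ube3a were not called under median-of-ratios scaling. Igf2r, Grb10 and Ube3a were not called with quantile normalization, nor were Igf2 and Ube3a with Rpph1 left out of the total.

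Cdkn1c had 796, 771 and 769 TPM in XY and 1007 and 1081 TPM in XX (-0.42 ± 0.11, limma adjusted p = 0.0169). Dlk1 had 93.9, 88.5 and 114 TPM against 147 and 149 TPM (-0.59 ± 0.15, limma adjusted p = 0.0129). Both calls ended under median-of-ratios scaling and with Rpph1 left out of the total. Meg3, with 103, 93.5 and 82.1 TPM in XY against 79.1 and 68.3 TPM in XX, was higher in every XY library but not called (0.33 ± 0.13, limma adjusted p = 0.0913). It was called higher under all 3 other scalings and without control XY replicate 3. Plagl1 overlapped between the groups, with 79.97 to 97.4 TPM against 87.4 and 113 TPM (-0.20 ± 0.13, limma adjusted p = 0.294). Of the remaining called genes 2 were higher in XY and are named after their values were seen. These were Nnat, with 339, 326 and 259 TPM against 207 and 221 TPM (0.51 ± 0.12, limma adjusted p = 0.00917), and the miRNA host RNA Mirg, with 9.19, 9.15 and 12.04 TPM against 5.37 and 6.39 TPM (0.69 ± 0.20, limma adjusted p = 0.0266). The call of Mirg ended in 8 of 21 alternatives and that of Nnat in 2. Ppp1r9a (-0.53) and Gnas (-0.38) were lower. The call of Ppp1r9a ended in 8 of 21 alternatives, among them all 3 other scalings (adjusted p up to 0.511), and that of Gnas in 7, among them median-of-ratios scaling (adjusted p = 0.739) and Rpph1 left out of the total.

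With 1 library left out the count ran from 9, without control XX replicate 1, to 18, and it was 11 without control XY replicate 2. Averaging replicates 1 and 2 of control XY gave 10, all lower, and 1766 of all genes in place of 4064. Without control XY replicate 2, 2304 of all genes were called. Markers of other cells moved in this comparison: 5 of 8 gonadal somatic markers and 5 of 8 mesenchyme markers were lower in XY, while 6 of 7 neural, 4 of 8 mesonephric, 3 of 8 erythroid and 2 of 8 macrophage markers were higher. The summed gonadal somatic level was 681 to 829 TPM in XY and 1313 to 1396 TPM in XX, and the summed erythroid level 302 to 2442 TPM and 233 to 252 TPM, with 1 or 2 of the 8 erythroid markers at 0. Their part in the differences was not tested.

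At E11.5, without culture, XY and XX cells differed in few of these genes. Of the 35, 2 were higher and 1 lower in XY, where 2.29% of all genes were called, 1.09% higher and 1.2% lower. The maternally expressed genes gave 1 higher and 1 lower call, and the paternally expressed genes 1 higher and 0 lower. Cdkn1c had 586 and 625 TPM in E11.5 XY and 1167 and 884 TPM in E11.5 XX, a fold of 1.68 with no overlap (-0.74 ± 0.12, limma adjusted p = 0.0129). The call ended without E11.5 XY replicate 1 (adjusted p = 0.0564) or E11.5 XX replicate 1 (adjusted p = 0.0779). Zim1 had 115 and 122 TPM against 90.2 and 83.6 TPM (0.44 ± 0.11, limma adjusted p = 0.0499), and 15 of 21 alternatives ended its call. Nap1l5 had 2.63 and 2.92 TPM against 0 and 0.88 TPM (1.46 ± 0.33, limma adjusted p = 0.0408), values too low to carry a fold, and 14 of 21 alternatives ended its call.

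Of the genes lower in XY in culture, Peg10 had 259 and 266 TPM in E11.5 XY and 377 and 325 TPM in E11.5 XX, lower in both XY libraries but not called (-0.41 ± 0.11, limma adjusted p = 0.0616). It was called lower without replicate 3 of control XY or of Dfo XY. Asb4 had 107 and 102 TPM against 115 and 102 TPM (-0.05 ± 0.10, limma adjusted p = 0.819). Peg3 had 1379.5 and 1425 TPM in XY and 1331 and 1307 TPM in XX (0.09 ± 0.11, limma adjusted p = 0.697). Igf2r had 142 and 126 TPM against 134 and 128 TPM (0.03 ± 0.14, limma adjusted p = 0.928). H19 had 4466 and 4079.9 TPM against 6102 and 5097 TPM (-0.39 ± 0.14, limma adjusted p = 0.143), lower in both XY libraries but not called. Igf2, at 983 and 961 TPM against 1223 and 1134 TPM, had the same order (-0.28 ± 0.15, limma adjusted p = 0.336). Meg3 had 109 and 104 TPM against 62.3 and 79.2 TPM (0.60 ± 0.15, limma adjusted p = 0.0527) and was not called. Dlk1 had 108 and 94.9 TPM against 154 and 112 TPM (-0.38 ± 0.16, limma adjusted p = 0.216), and Plagl1 129 and 138 TPM against 124 and 115 TPM (0.16 ± 0.15, limma adjusted p = 0.586). With 1 library left out the E11.5 count ran from 0 (without E11.5 XY replicate 1 or E11.5 XX replicate 1) to 5 (without control XY replicate 3). A fit on the 4 E11.5 libraries alone called 0 of all genes, so these calls lean on the spread of the other groups.

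Cultured control cells were then set against E11.5 cells of the same sex, which differ in culture and in stage reached, so that the 2 cannot be told apart. In XY, 1 of the 35 genes was higher and 3 lower in culture, where 5.66% of all genes were called, 2.62% higher and 3.04% lower. Impact was higher, with 61.0, 60.6 and 54.1 TPM in culture and 29.1 and 33.6 TPM at E11.5 (0.88 ± 0.12, limma adjusted p = 0.00137). Zim1 was lower, with 80.3, 76.95 and 74.1 TPM against 115 and 122 TPM (-0.61 ± 0.10, limma adjusted p = 0.00382). These 2 calls held in all 21 alternatives. Commd1, a COMM domain gene, had 77.5, 65.0 and 85.0 TPM against 129 and 111 TPM (-0.66 ± 0.14, limma adjusted p = 0.0178), and Plagl1 had 79.97, 82.1 and 97.4 TPM against 129 and 138 TPM (-0.63 ± 0.13, limma adjusted p = 0.0197). Both calls ended when only the libraries of the 2 groups were fitted, which left 2 calls, and when replicate 1 or 2 of control XY or replicate 1 of E11.5 XY was left out. That of Plagl1 also ended without E11.5 XY replicate 2. Peg3 was not called in XY (-0.23 ± 0.10, limma adjusted p = 0.191), nor were H19 (-0.22), Igf2 (-0.26), Igf2r (-0.21), Cdkn1c (0.36), Meg3 (-0.21) and Dlk1 (-0.04). Cdkn1c was called higher under all 3 other scalings and without either E11.5 XX library, and so was Peg10. Of the markers of other cells, 3 of 7 neural and 3 of 8 macrophage markers were higher in XY culture and 2 of 8 endothelial markers lower. Their sums in culture and at E11.5 were 72.1 to 161 and 29.1 to 31.6 TPM (neural), 65.6 to 93.9 and 24.7 to 34.4 TPM (macrophage) and 80.3 to 158 and 238 to 252 TPM (endothelial), and their part in the results was not tested.

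In XX, 7 of the 35 genes were higher in culture and 0 lower, where 9.07% of all genes were called, 7.36% higher and 1.71% lower. Impact had 102 and 97.5 TPM in culture and 32.4 and 27.7 TPM at E11.5, a fold of 3.25 (1.70 ± 0.13, limma adjusted p = 1.16e-05). Peg10 had 629 and 635 TPM against 377 and 325 TPM (0.85 ± 0.11, limma adjusted p = 0.000667). Peg3 had 2394 and 2292 TPM against 1331 and 1307 TPM (0.83 ± 0.11, limma adjusted p = 0.000738), and Zim1 141 and 139 TPM against 90.2 and 83.6 TPM (0.68 ± 0.11, limma adjusted p = 0.00228). Each of these cultured XX libraries was above every other group for Peg3, Zim1 and Peg10. Asb4 had 152 and 159 TPM against 115 and 102 TPM (0.52 ± 0.10, limma adjusted p = 0.00935), Igf2r 186 and 205 TPM against 134 and 128 TPM (0.57 ± 0.14, limma adjusted p = 0.0253), and Nap1l5 2.7 and 3.04 TPM against 0 and 0.88 TPM (1.496 ± 0.33, limma adjusted p = 0.0146). Asb4 and Igf2r lost their calls under median-of-ratios scaling and quantile normalization, where Commd1 and Plagl1 were called lower. Each of these scalings gave 5 higher and 2 lower. Over all genes 474 were higher and 377 lower under median-of-ratios scaling, and 426 and 278 with quantile normalization, in place of 1187 and 276. H19 (0.01), Igf2 (0.07), Cdkn1c (0.04), Meg3 (0.06) and Dlk1 (0.17) were not called, nor was Plagl1 (-0.27). Of the markers of other cells, 5 of 8 endothelial and 3 of 8 erythroid markers were lower in XX culture. Their sums in culture and at E11.5 were 127 to 136 and 322 to 377 TPM (endothelial, with 0 at 0 TPM) and 233 to 252 and 1275 to 1791 TPM (erythroid), and their part in the results was not tested. A fit on these 4 libraries alone called 0 of all genes.

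**Figure D3:**
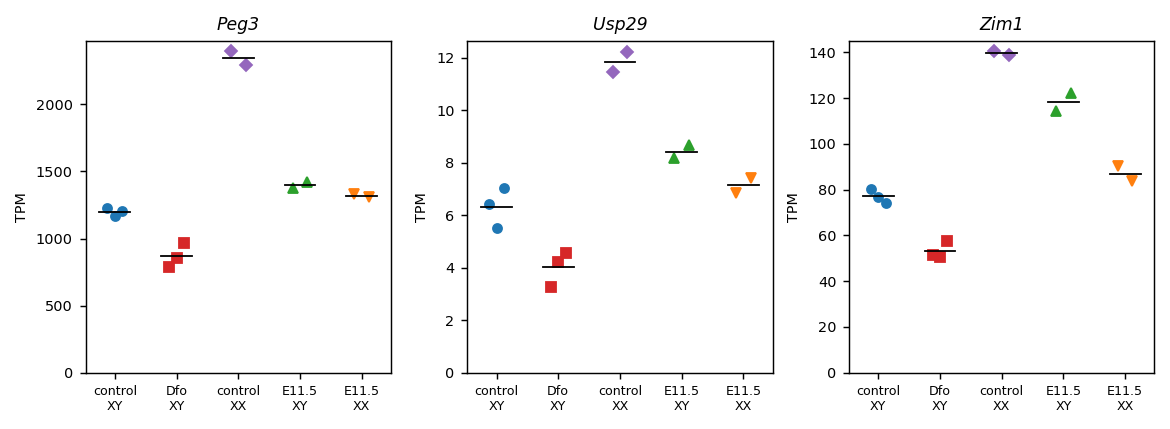
TPM of the 3 genes followed in the Peg3 domain in each library, with the group mean as a line and every axis starting at 0. Control XX lies highest in all 3 panels (Peg3 2292 and 2394 TPM) and Dfo XY lowest (Peg3 791 to 966 TPM).

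Whether XY and XX cells differed by another amount in culture than at E11.5 was tested by subtracting one sex difference from the other. Of the 35 genes 4 were called, all with a more negative difference in culture, where 1.33% of all genes were called, 0.192% positive and 1.14% negative. The median over all genes was -0.26. With 1 library left out the count ran from 1 (without control XX replicate 1, E11.5 XY replicate 1 or E11.5 XX replicate 2) to 7 (without control XY replicate 3). Zim1 was higher in XY at E11.5 (0.44) and lower in XY in culture (-0.85), a difference of -1.29 ± 0.14 (limma adjusted p = 0.00304), which held in all 21 alternatives. Peg3 gave -1.05 ± 0.15 (limma adjusted p = 0.00872), a call that ended without control XX replicate 1 (adjusted p = 0.0648), E11.5 XY replicate 1 (adjusted p = 0.0560) or E11.5 XX replicate 2 (adjusted p = 0.0508). Asb4 (-0.73 ± 0.14, limma adjusted p = 0.0326) and Impact (-0.82 ± 0.18, limma adjusted p = 0.0479) were each ended by 15 of 21 alternatives. Usp29 had a like size with a larger error (-1.02 ± 0.31, limma adjusted p = 0.101).

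Dfo XY cells were also set against control XX cells in culture. This comparison shares its libraries with the first 2 and is no independent evidence. Of the 35 genes 2 were higher and 22 lower, where 38.6% of all genes were called, 4.79% higher and 33.8% lower. Under median-of-ratios scaling the split was 4 higher and 8 lower, and over all genes 1774 higher and 1410 lower. With quantile normalization it was 4 and 11 (1378 and 1571 over all genes). With Rpph1 left out of the total it was 3 and 15 (1126 and 3069 over all genes). Maternally expressed genes gave 1 higher and 11 lower calls, and paternally expressed genes the same numbers. The differences were -1.43 ± 0.10 for Peg3 (limma adjusted p = 1.91e-06), -1.38 ± 0.10 for Zim1 (1.99e-06) and -1.36 ± 0.21 for Usp29 (0.000361). The folds of these genes ran from 2.57 to 2.699. Asb4 differed by -1.14 ± 0.09, Ppp1r9a by -1.23 ± 0.13, Cdkn1c by -1.03 ± 0.11, Mest by -0.82 ± 0.10, Peg10 by -0.68 ± 0.10, Igf2 by -0.87 ± 0.14 and H19 by -0.75 ± 0.12, with limma adjusted p between 6.28e-06 (Asb4) and 0.000621 (H19). Igf2r (-0.66) was lower and Meg3 (0.61) higher. Under median-of-ratios scaling the calls of Peg10 (limma adjusted p = 0.202), Igf2 (0.126), H19 (0.111) and Igf2r ended. That of Igf2r also ended with quantile normalization. Dlk1 (-0.31) and Plagl1 (-0.05) were not called. Lower in Dfo XY were 7 of 8 gonadal somatic, 6 of 8 mesenchyme and 4 of 7 coelomic epithelium markers. Higher were 5 of 8 erythroid, 5 of 8 macrophage, 2 of 8 mesonephric, 1 of 7 neural and 1 of 8 endothelial markers. The part of these cells was not tested.

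**Figure D4:**
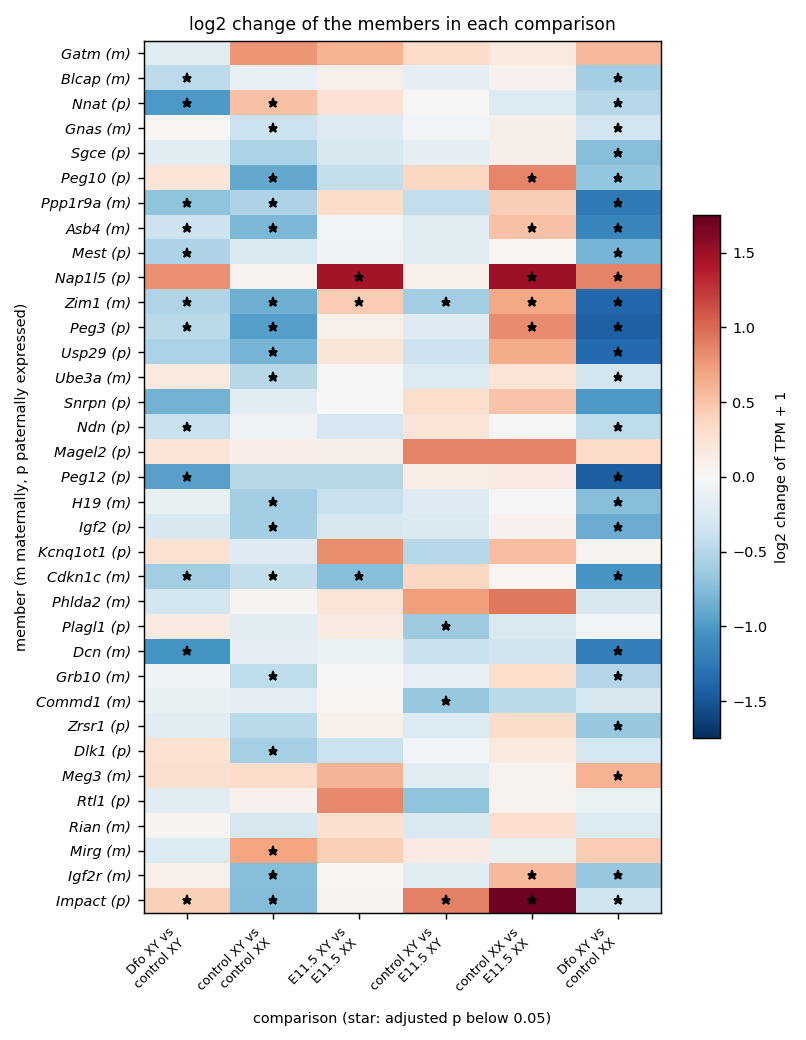
Log2 change of TPM + 1 for the 35 genes tested (rows, ordered along the chromosomes, m for maternally and p for paternally expressed) in 6 comparisons (columns), blue for lower and red for higher in the group named first. Stars mark an adjusted p below 0.05: 12 stars stand in the first column, 17 in the second, 3 in the third, 4 in the fourth, 7 in the fifth and 24 in the last.

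Over the first 5 comparisons Zim1 was called in 5, Impact in 4, and Asb4, Cdkn1c and Peg3 in 3 each. Gatm, Kcnq1ot1, Magel2, Meg3, Phlda2, Rian, Rtl1, Sgce, Snrpn and Zrsr1 were called in 0 of 5, and Slc22a18 was not tested. How many of all genes were called this often was not counted. The comparisons share libraries, so these counts are not independent.

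Ratios of neighbouring genes within a library do not depend on its scaling factor, apart from the added 1, and are given without a test. The log2 ratio of Zim1 to Peg3, the maternally to the paternally expressed gene, was -3.94 ± 0.06 (SD, n = 3) in control XY, -4.00 ± 0.07 (SD, n = 3) in Dfo XY, -4.06 ± 0.03 (SD, n = 2) in control XX and -3.91 ± 0.06 (SD, n = 2) in E11.5 XX. E11.5 XY stood apart at -3.56 ± 0.03 (SD, n = 2). While Peg3 ranged from 791 to 2394 TPM over the other 10 libraries, the ratio kept between -4.08 and -3.87. The ratio of Cdkn1c to Kcnq1ot1, the antisense RNA of its domain, was 6.19 ± 0.16 (SD, n = 3) in control XY and 5.31 ± 0.30 (SD, n = 3) in Dfo XY without overlap, and 5.34 ± 0.13 (SD, n = 2) in E11.5 XY against 6.89 ± 0.53 (SD, n = 2) in E11.5 XX. That of Asb4 to Peg10 was -1.90 ± 0.10 (SD, n = 3) in control XY and -2.48 ± 0.12 (SD, n = 3) in Dfo XY, also without overlap. The ratio of Meg3 to Dlk1 was near 0 in the XY groups (-0.08 in control XY, -0.08 in Dfo XY and 0.08 in E11.5 XY) and lower in control XX (-0.998 ± 0.16, SD, n = 2) and E11.5 XX (-0.90 ± 0.56, SD, n = 2), with control XY replicate 3 at -0.46 and E11.5 XX replicate 2 at -0.50. The ratio of H19 to Igf2 lay between 2.13 and 2.31 in all 5 group means, but between 1.997 and 2.66 in single libraries. Replicate 3 stood above replicates 1 and 2 in control XY (2.50 against 1.997 and 2.001) and in Dfo XY (2.66 against 2.11 and 2.16). Exact permutation of 3 against 3 libraries cannot go below p = 0.10, so no p is given for single ratios.

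**Figure D5:**
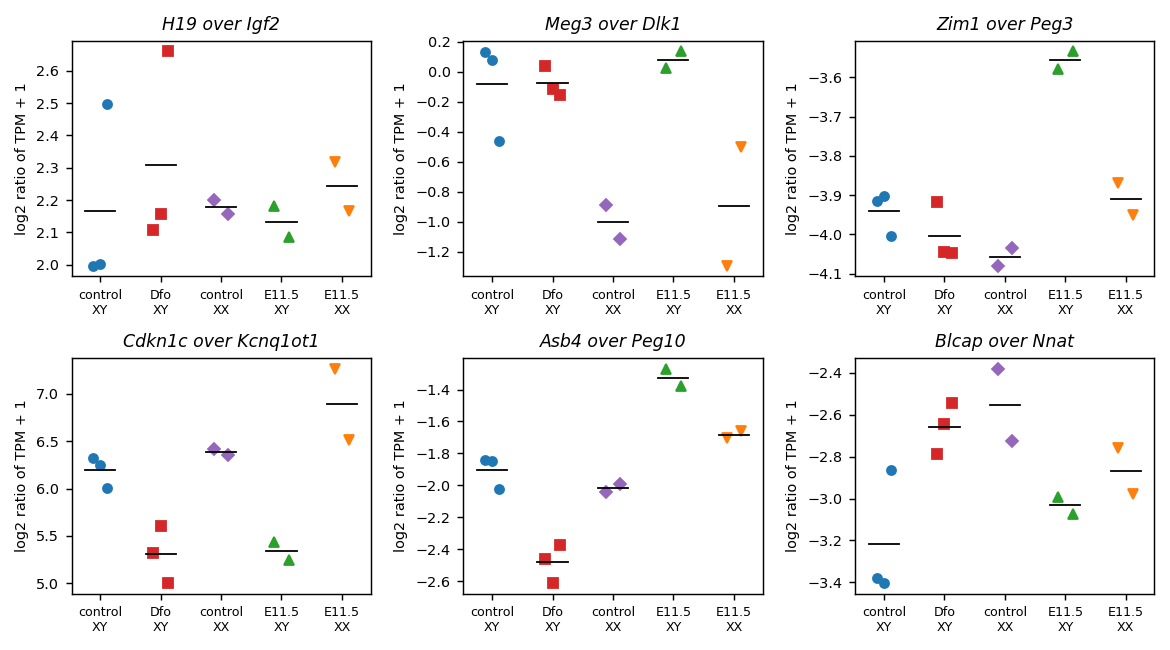
Log2 ratio of TPM + 1 of 6 pairs of imprinted neighbours in each library, with the group mean as a line; the vertical axes differ between panels and do not start at 0. Zim1 over Peg3 stays near -4 except in E11.5 XY (-3.56), and Cdkn1c over Kcnq1ot1 and Asb4 over Peg10 lie lower in Dfo XY than in control XY.

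Genes that keep or remove imprints were read from a list of 20, of which 19 were tested. With Dfo 1 rose and 2 fell, beside 4.98% and 10.5% of all genes: Tet2, a dioxygenase that oxidizes methylcytosine, rose by 0.73 (limma adjusted p = 0.000412), while the methyltransferase genes Dnmt3b (-0.71, limma adjusted p = 0.0136) and Dnmt3a (-0.41, limma adjusted p = 0.0160) fell. The list's median was -0.11 beside -0.17 for all genes. In cultured XY against XX 0 were higher and 15 lower, where 25.2% of all genes were called and 22.2% were lower. The smallest adjusted p were those of Dnmt3a (-0.66), the histone methyltransferase gene Ehmt2 (-0.67) and Trim28 (-0.56), the corepressor that guards imprints. The list's median was -0.59 beside -0.22. This count moved with the scaling, and so did that of all genes. Lower were 2 under median-of-ratios scaling, 0 with quantile normalization and 6 with Rpph1 left out of the total, alternatives chosen after seeing the data. Over all genes 499, 323 and 1513 were then lower, in place of 3585. The list's median stayed below that of all genes, at -0.26 beside 0.07, -0.20 beside -0.03 and -0.41 beside -0.06. At E11.5 0 of 19 differed by sex, where 2.29% of all genes were called. In cultured against E11.5 cells 0 differed in XY, where 5.66% of all genes were called. In XX 4 were higher (Tet3, Tet2, Tet1 and Dnmt3a, the last named after its values were seen), where 7.36% of all genes were higher. The list's median in XX was 0.24 beside 0.12 for all genes.

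Of 16 genes of IGF and insulin signalling 15 were tested, and with Dfo 4 rose and 4 fell, where 4.98% of all genes rose and 10.5% fell. Igfbp4, which binds IGFs, fell by 0.90 (limma adjusted p = 5.95e-05) and Igf1, the sister growth factor of Igf2, by 0.87 (limma adjusted p = 0.00255), while Irs2, an adaptor of the insulin and IGF1 receptors, rose by 0.72 (limma adjusted p = 0.000962). In cultured XY against XX, where 2.97% of all genes were higher and 22.2% lower, 1 was higher and 5 lower, with Igfbp5 (-0.73) and the Igf2 mRNA-binding protein genes Igf2bp3 (-0.63) and Igf2bp2 (-0.56) first. The lower calls numbered 0 under median-of-ratios scaling, 1 with quantile normalization and 3 with Rpph1 left out of the total. Over all genes the lower calls numbered 499, 323 and 1513 under these scalings, in place of 3585. At E11.5 1 was lower in XY, Igfbp4 (-0.60), where 1.2% of all genes were lower. A list of 38 further imprinted genes, of which 32 were tested, gave 4 higher and 3 lower calls with Dfo (beside the same 4.98% and 10.5% of all genes), with Copg2 (-0.68), which overlaps Mest on the opposite strand, Inpp5f (-0.74) and Cd81 (0.44) first, and a median of 0.12 beside -0.17. In cultured XY against XX it gave 0 higher and 5 lower calls (beside the same 2.97% and 22.2% of all genes) and a median of -0.15 beside -0.22. Of the lower calls 0 were made under median-of-ratios scaling or quantile normalization and 2 with Rpph1 left out of the total. The lower calls over all genes were the same 499, 323 and 1513.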

How the data were processed

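RNA-seq of NR5A1(+) cells was deposited by the authors as TPM, 1 table per library with 24411 symbols; the genome mm10 and the tools R 4.1.2, RSEM and STAR 2.7.10b are named per the submitters' processing notes. Annotation, RSEM version, filters and strand setting: not given in the sources used here. Since TPM keeps no depth, no counting intervals were computed.

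Groups come from the sample titles. A pseudocount of 1 was added, 16133 genes that reached 1 TPM in 2 or more libraries entered, and limma 3.58.1 in R 4.3.3 was fitted to log2(TPM + 1) with all 12 libraries in 1 fit, 1 coefficient per group and a mean-variance trend. P-values were adjusted by Benjamini-Hochberg over all 16133 genes in each of 7 comparisons, with calls made below 0.05. Fold changes on this scale understate those of low genes. The steps were tested on simulated data. The 36 genes, the lists and the tests were chosen with earlier results of these data known. Called genes were described with all library values, at most the 10 with the smallest adjusted p in a comparison, and H19, Igf2, Igf2r, Cdkn1c, Meg3, Dlk1, Peg3 and Plagl1 in any case; genes of other lists were named by the 3 smallest adjusted p per list and comparison.

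Replicate numbers in the titles were checked for pairing: deviations of same-numbered control XY and Dfo XY libraries correlated across genes at 0.21, 0.12 and 0.34, above the limit of 0.1 set for calling them paired, but control XY replicate 2 correlated more with Dfo XY replicate 1 (0.18). The main fit has no block; the blocked fit is an alternative. Further alternatives were a pseudocount of 0.1, 2 other filters, 3 other scalings, a fit on only the groups compared, replicates 1 and 2 of cultured XY averaged, both Dfo libraries with Xist left out, and each library left out in turn. Leaving out a library of a group not compared cannot move a change, only the spread shared by the fit. The scalings of 3 gene lists were added after seeing the data. Positions are from GENCODE M21, and promoter windows were read with pandas 2.3.3 in Python 3.11.15.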

Additional observations from a re-analysis of the deposited data

Results flagged for a closer look

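A difference between XY and XX that itself differed between culture and E11.5, by the interaction term in limma over all 16133 genes, was found for 4 imprinted genes. The values were -1.29 for Zim1 (adjusted p = 0.00304), -1.05 for Peg3 (adjusted p = 0.00872), -0.73 for Asb4 (adjusted p = 0.0326) and -0.82 for Impact (adjusted p = 0.0479) on the log2 scale, against -0.26 for the median of all genes tested. Zim1 held in all 21 alternatives and Peg3 in 17 of 21. Asb4 and Impact held in 6 of 21 each.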

How the results depend on the processing

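Counts of called imprinted genes moved as follows. Counts over all genes moved too. They are given here or in brackets, but not for fits that left 1 library in a group or for most fits with 1 library left out. With Dfo the count over all genes went from 2498 to 834 with replicates 1 and 2 of cultured XY averaged. For Dfo XY against control XX it went from 6234 to 3184 under median-of-ratios scaling and 2949 with quantile normalization. With Dfo, 12 became 6 when replicates 1 and 2 of cultured XY were averaged and 2 without both Dfo libraries with Xist. For cultured XY against XX, 17 (4064) became 8 (1028) under median-of-ratios scaling and 10 (1766) with averaging. It became 11 with quantile normalization (614) or without Rpph1 (2047). At E11.5, 3 (370) became 1 with a pseudocount of 0.1 (248), a filter of 5 TPM (228) or averaging (87). It became 0 (0) on the groups compared only. For culture against E11.5, 4 (913) in XY became 7 (1255) with quantile normalization. It became 2 on the groups compared only (210) or with averaging (184). In XX, 7 (1463) became 0 (0) on the groups compared only. For Dfo XY against control XX, 24 became 12 under median-of-ratios scaling, 15 with quantile normalization and 14 without both Dfo libraries with Xist. The interaction's 4 (215) became 2 under median-of-ratios scaling (34), with quantile normalization (53), without Rpph1 (68) or on the groups compared only (20). It became 1 (8) with averaging. With 1 library left out, the counts ran from 8 to 13 (Dfo), 9 to 18 (cultured sex), 0 to 5 (E11.5 sex), 2 to 6 and 4 to 8 (culture against E11.5 in XY and XX), 17 to 25 (Dfo XY against control XX) and 1 to 7 (interaction). The Dfo count was 8 without control XY replicate 1 (1530 over all genes, in place of 2498) or Dfo XY replicate 2 (1485 over all genes). The XX count for culture against E11.5 was 4 without control XX replicate 2. The E11.5 count was 1 without replicate 1 or 2 of control XY, Dfo XY or control XX, or without E11.5 XY replicate 2. The interaction count was 2 without replicate 1 or 2 of control XY or Dfo XY, control XX replicate 2 or E11.5 XY replicate 2.

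With the replicate number as a block, the Dfo count was 13, adding Igf2, the interaction count was 2 and the E11.5 count 2; the pairing check bears only on the Dfo comparison, and where groups differ in size control XY replicate 3 has no partner and adds nothing. Signs turned for H19 with Dfo (0.021 under median-of-ratios scaling) and Igf2r with Dfo (-0.022 without Dfo XY replicate 3 and at most 0.18 with any other single library left out, and 0.31 without both Dfo libraries with Xist). In Dfo XY against control XX they turned for Gnas (0.14), Impact (0.13), Ndn (0.033) and Ube3a (0.16) under median-of-ratios scaling, and for Impact (0.12), Ndn (0.017) and Ube3a (0.15) with quantile normalization. Of 1652 alternative values of the genes called in a comparison and, with Dfo, of the genes described in any case, 1369 kept direction and side of the threshold, 271 lost the call, 3 gained it and 9 turned. Some of these alternatives left out a library of a group not compared, so the change could not move and its direction was fixed. Gains of other genes are not in these numbers. The cause was not tested. With unknown depth and 2 or 3 libraries a group, genes of a few TPM carry little weight.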
